A study of Mus musculus with 56 samples.

Results

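The genes described here are 35 genes of protein folding in the endoplasmic reticulum (ER), followed in mouse muscle in which the giant sarcomere protein titin can be severed on demand. They were chosen by name as genes of the unfolded protein response of the secretory pathway, and all 35 were found among the 14871 genes of the table. By role they comprised 4 sensors and transcription factors, 5 large chaperones, 7 partners of BiP or small lumenal proteins, 5 protein disulphide isomerases, 6 genes of degradation, 7 genes of protein entry and processing, and 1 gene of export. Whole tibialis anterior, a muscle of the shin, was profiled by bulk RNA sequencing in 56 samples. The mice carried the allele for mechanical knock-out of titin on both chromosomes (HOMO), on a single one (HET) or not at all (WT). Muscles received either an adeno-associated virus (AAV) that encodes GFP fused to TEV protease, or saline, and were taken 3, 7 or 21 days post injection (dpi). HOMO groups held 4 AAV and 4 saline muscles at 3 dpi, 5 and 4 at 7 dpi, and 4 and 4 at 21 dpi. HET muscles were taken at 7 dpi, 4 with AAV and 4 with saline. WT groups held 5 AAV and 3 saline muscles at 3 dpi, 4 and 3 at 7 dpi, and 4 and 4 at 21 dpi.

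TEV protease is a plant virus enzyme that cuts at a short recognition site, which the mechanical knock-out allele places in titin, so the cut is made in the protein and the titin transcript does not check the genotype. WT muscle with AAV carries the vector and the protease without that site. The promoter, serotype and dose of the vector, and the strain, age and sex of the mice, are not given in the sources used here. Nor do the labels say which muscles share an animal, so p-values measure the spread between these samples, and some of that spread may be technical.

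Secreted and membrane proteins enter the ER through the Sec61 channel, are folded there by chaperones such as BiP and by disulphide isomerases, and leave in COPII vesicles, while proteins that fail to fold are pulled back to the cytosol and degraded. When unfolded proteins build up, the sensors IRE1, ATF6 and PERK turn on the unfolded protein response. IRE1 splices the Xbp1 transcript into the form that encodes an active transcription factor, ATF6 is cut to release another, and PERK slows translation and raises ATF4. The targets of XBP1 and ATF6 are largely the chaperones, isomerases and degradation genes described here. In a muscle fibre most of the ER is sarcoplasmic reticulum, the calcium store, whereas fibroblasts, macrophages and plasma cells are rich in the rough ER that makes secreted protein.

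Recovered reads ranged from 6.9 M to 27.18 M per library, and the lowest, HOMO AAV replicate 2 at 7 dpi, was the only library under 14.98 M. The lowest member count in any library was 13 reads, and all 35 members passed the filter on low values. Viral transgene reads numbered 56 to 34407 in AAV muscles and 0 to 6 in saline muscles, as the labels state. Transgene levels differed between genotypes and days, with medians of 42.9 in HOMO AAV and 9.59 in WT AAV muscles at 3 dpi, so the responses of the genotypes were not compared at equal transgene. At 7 dpi the medians were 23.8 in HOMO AAV, 88.0 in HET AAV and 238 in WT AAV muscles, and at 21 dpi 666 in HOMO AAV and 823 in WT AAV muscles.

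Promoter sequence is shown first because several of the member genes carry the same short element close to their start. The ER stress response element, ERSE, is known as a binding site of ATF6 and XBP1 with the factor NF-Y, and its letters are CCAAT, then 9 bases of any kind, then CCACG. The related elements ERSE-II (ATTGG, any base, CCACG) and UPRE (TGACGTGG) were searched as well, each on both strands. The windows ran from 250 bases before to 50 bases after the RefSeq transcription start (GRCm38.p6). RefSeq windows were at hand for 27 of the 35 members, and not for Hyou1, Atf6, Manf, Derl1, Sec61a1, Ssr2, Ostc and Sil1. ERSE was matched in 8 members, which is 29.6% of the 27, against 0.137% of the 27025 mouse genes with a window. ERSE-II was matched in Dnajb11 and Herpud1, against 0.0444% of those genes, and UPRE in Sec24d, against 0.714% of those genes. The members were chosen by name as genes of the unfolded protein response, so the member shares go with that choice. They draw on no value from the muscles. No member's window held matches of 2 of these elements, and in Hsp90b1 ERSE was matched at 2 places. The stretches below are read 5′ to 3′ along the strand of the gene, with the matched element in capitals. In Calr, in Creld2 and in the second match of Hsp90b1 the element lies on the opposite strand.
Hspa5, chr2:34772013-34772055, plus strand: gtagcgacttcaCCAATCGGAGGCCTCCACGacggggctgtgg
Hsp90b1, chr10:86705521-86705668, minus strand: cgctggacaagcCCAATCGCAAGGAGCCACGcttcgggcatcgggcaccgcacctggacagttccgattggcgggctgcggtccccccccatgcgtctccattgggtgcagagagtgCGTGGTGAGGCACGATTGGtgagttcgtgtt
Calr, chr8:84847063-84847105, minus strand: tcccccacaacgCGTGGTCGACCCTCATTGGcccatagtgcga
Canx, chr11:50325788-50325830, minus strand: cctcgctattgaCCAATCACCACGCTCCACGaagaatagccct
Pdia6, chr12:17266479-17266521, plus strand: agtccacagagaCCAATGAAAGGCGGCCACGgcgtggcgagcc
Creld2, chr15:88819508-88819550, plus strand: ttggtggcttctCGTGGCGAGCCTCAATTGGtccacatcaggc
Dnajc3, chr14:118937815-118937857, plus strand: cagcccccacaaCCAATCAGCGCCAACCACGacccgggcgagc
Syvn1, chr19:6046520-6046562, plus strand: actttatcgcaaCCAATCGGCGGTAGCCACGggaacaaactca
Herpud1, ERSE-II, chr8:94386365-94386399, plus strand: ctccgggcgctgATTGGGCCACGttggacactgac
Sec24d, UPRE, chr3:123267458-123267489, plus strand: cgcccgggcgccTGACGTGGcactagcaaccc

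**Figure D1:**
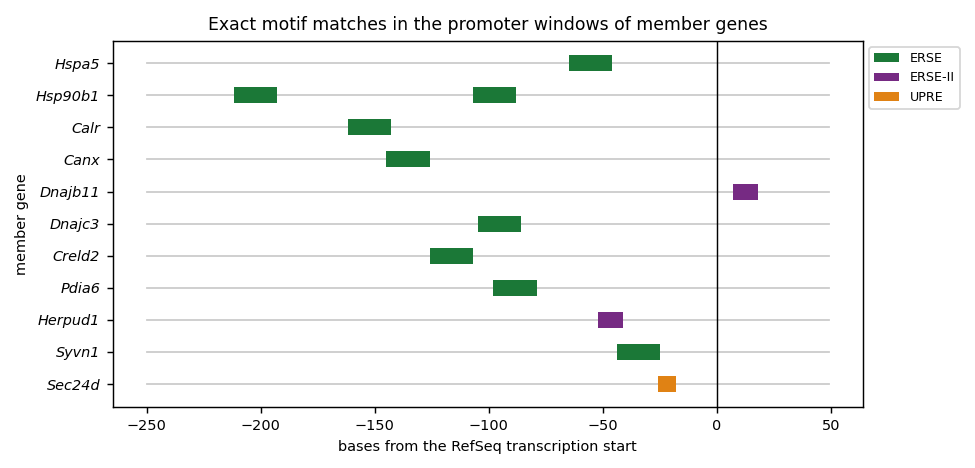
Exact matches of ERSE, ERSE-II and UPRE in the promoter windows of the member genes that hold one, by distance in bases from the RefSeq start (0). The 8 genes with ERSE and the one match of UPRE lie upstream of the start, as does the ERSE-II of Herpud1, while that of Dnajb11 begins 7 bases after it.

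At 3 dpi the ER folding genes rose broadly in HOMO muscle given AAV. Of the 35 members, 25 were higher and 1 lower in HOMO AAV than in HOMO saline muscles, and 9 did not pass the test, where 17.4% of all 13017 genes tested were higher and 17.2% lower. The median change of the members was 0.71 on the log2 scale, against medians over all genes tested of between -0.02 and 0.02 in the 19 comparisons described here. For each of the 25 genes that rose, every HOMO AAV muscle lay above every HOMO saline muscle. The share of all genes whose groups lay apart in this way was not counted. All 5 chaperones and all 5 disulphide isomerases rose, as did 5 of the 7 BiP partners and small lumenal proteins, 5 of the 7 entry and processing genes, and Sec24d. By contrast 3 of the 6 degradation genes and 3 of the 4 sensors and transcription factors did not pass. In whole muscle, more RNA per cell and more cells of a type cannot be told apart.

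Hspa5 encodes BiP, the Hsp70 of the ER lumen that binds unfolded chains and holds the stress sensors inactive (ENSMUSG00000026864, chr2:34771970-34777547, plus strand, GRCm38). Its normalised read count was 267, 361, 359 and 419.6 in HOMO AAV muscles at 3 dpi, against 175, 145, 198 and 187 in HOMO saline muscles. The groups did not overlap, and the change was 0.98 ± 0.12 (log2 ± SE, adjusted p = 2.53e-08), or 1.98-fold. Hsp90b1 encodes Grp94, the Hsp90 of the ER, whose clients include integrins and Toll-like receptors. It measured 197, 250.3, 260.2 and 241 in HOMO AAV muscles, against 121, 111, 140.3 and 139 in HOMO saline muscles, again without overlap (0.88 ± 0.11, adjusted p = 2.13e-08). Hyou1 encodes Grp170, a large Hsp70 relative that exchanges the nucleotide of BiP. Its counts were 47.7, 51.6, 55.9 and 57.2 in HOMO AAV muscles, against 32.2, 24.3, 27.9 and 25.9 in HOMO saline muscles. That is a change of 0.92 ± 0.10 (adjusted p = 4.82e-09).

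Calreticulin, encoded by Calr, and calnexin, encoded by Canx, hold glycoproteins while they fold. Calr had 252, 264, 239.8 and 231 in HOMO AAV muscles, against 144, 137, 143 and 151 in HOMO saline muscles. The groups did not overlap, and the change was 0.78 ± 0.08 (adjusted p = 7.6e-10) for Calr and 0.64 ± 0.09 for Canx (adjusted p = 2.09e-07), whose groups were apart as well.

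Among the smaller proteins of the lumen, Sdf2l1, a stress-induced partner of BiP and its J-domain proteins, showed the largest rise of any member. It had 7.76, 10.2, 11.1 and 10.3 in HOMO AAV muscles at 3 dpi, against 2.45, 2.05, 1.93 and 1.42 in HOMO saline muscles. The lowest AAV muscle stood well above the highest saline muscle, and the change was 1.87 ± 0.20 (adjusted p = 9.19e-10), which the added count of 1 understates at levels this low. Manf, a secreted factor that binds BiP, had 33.0, 29.2, 32.4 and 38.8 in HOMO AAV muscles, against 10.9, 10.2, 15.2 and 11.2 in HOMO saline muscles (1.42 ± 0.18, adjusted p = 5.31e-08). Creld2, another protein made under ER stress, rose by 0.98 ± 0.17 (adjusted p = 1.65e-05). Dnajb9 encodes ERdj4, a J-domain protein that brings BiP onto IRE1. Its counts of 51.0, 77.4, 82.3 and 113 in HOMO AAV muscles, against 40.8, 42.3, 50.1 and 48.3 in HOMO saline muscles, spread widely within the AAV group, and the lowest AAV muscle lay just above the highest saline muscle (0.77 ± 0.11, adjusted p = 5.6e-07). Dnajb11 rose by 0.48 ± 0.07 (adjusted p = 2.3e-06). Dnajc3, which encodes p58IPK, stood at 48.2 ± 7.06 in HOMO AAV and 38.1 ± 3.8 in HOMO saline muscles (SD, n = 4 each) and did not pass (adjusted p = 0.0505). Sil1, a nucleotide exchange factor of BiP like Hyou1, was the one member that fell, with 13.9, 10.7, 12.7 and 12.2 in HOMO AAV muscles, against 16.8, 13.3, 15.7 and 17.8 in HOMO saline muscles. These groups overlapped (-0.33 ± 0.09, adjusted p = 0.00462), and with only the groups compared in the fit its adjusted p was 0.0656.

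Protein disulphide isomerases form and rearrange disulphide bonds in folding chains. Pdia6 (P5, which also acts on the stress sensors) had 79.2, 80.4, 88.8 and 78.0 in HOMO AAV muscles, against 33.1, 27.1, 35.2 and 34.0 in HOMO saline muscles. It was 2.49-fold higher with no overlap (1.31 ± 0.13, adjusted p = 1.71e-10). Pdia3, the isomerase that works with calnexin and calreticulin, had 96.0, 134, 129 and 92.1 in HOMO AAV muscles, against 48.95, 44.6, 58.3 and 55.3 in HOMO saline muscles (1.10 ± 0.17, adjusted p = 3.24e-06). Pdia4 had 28.5, 35.4, 31.7 and 21.3 in HOMO AAV muscles, against 12.7, 11.5, 16.8 and 12.4 in HOMO saline muscles (1.06 ± 0.15, adjusted p = 8.67e-07). In both genes the AAV muscles of replicates 2 and 3 were the highest. P4hb, the classical disulphide isomerase and a subunit of collagen prolyl hydroxylase, rose by 0.62 ± 0.06 (adjusted p = 4.45e-10), and Pdia5 by 0.90 ± 0.20 (adjusted p = 0.000487).

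Of the degradation genes, Edem1, which picks out misfolded glycoproteins by their trimmed sugars, rose most. It had 18.2, 27.7, 24.6 and 14.5 in HOMO AAV muscles, against 9.57, 8.0, 9.21 and 8.74 in HOMO saline muscles (1.13 ± 0.21, adjusted p = 5.17e-05). Syvn1, the ubiquitin ligase HRD1, rose by 0.47 ± 0.09 (adjusted p = 0.000105) and Derl2, of its membrane channel, by 0.33 ± 0.10 (adjusted p = 0.00762). Sel1l, the adaptor of HRD1, stood at 80.2 ± 9.14 in HOMO AAV and 80.0 ± 4.26 in HOMO saline muscles (SD, n = 4 each). Herpud1, an organiser of the same complex that is usually a sensitive target of ER stress, had 69.5, 60.0, 57.2 and 73.1 in HOMO AAV muscles, against 71.7, 74.0, 57.9 and 72.5 in HOMO saline muscles. Its groups overlapped throughout (-0.09 ± 0.10, adjusted p = 0.514).

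Entry and export genes rose as well. Sec61a1, the pore of the translocation channel, rose by 0.89 ± 0.15 (adjusted p = 6.76e-06), and its partner Sec61b by 0.85 ± 0.21 (adjusted p = 0.00169). Ssr1 and Ssr2, of the translocon-associated complex, rose by 0.41 ± 0.08 (adjusted p = 7.72e-05) and 0.84 ± 0.10 (adjusted p = 5.31e-08). Their partner Ssr3 had 213 ± 56.4 in HOMO AAV and 174 ± 20.4 in HOMO saline muscles (SD, n = 4 each) and did not pass. Ostc, a subunit of oligosaccharyltransferase, rose by 0.71 ± 0.11 (adjusted p = 4.84e-06). Sec24d, a cargo receptor of the COPII coat, had 13.6, 20.2, 20.8 and 15.5 in HOMO AAV muscles, against 7.78, 7.78, 10.4 and 9.33 in HOMO saline muscles (0.91 ± 0.19, adjusted p = 0.000224).

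Of the 4 sensors and transcription factors 1, Xbp1, rose. Xbp1, the transcript that IRE1 splices (ENSMUSG00000020484, chr11:5520659-5525893, plus strand, GRCm38), had 93.1, 105, 118 and 132 in HOMO AAV muscles at 3 dpi, against 69.4, 64.5, 78.5 and 76.4 in HOMO saline muscles. It rose by 0.62 ± 0.11 (adjusted p = 4.58e-05) with no overlap, and a count per gene does not separate its spliced from its unspliced form. Atf6 had 35.8, 41.2, 49.9 and 48.5 in HOMO AAV muscles, against 34.7, 41.0, 37.3 and 37.6 in HOMO saline muscles, and the groups overlapped (0.20 ± 0.09, adjusted p = 0.0887). Ern1, which encodes IRE1, had 16.6, 25.1, 21.6 and 20.8 in HOMO AAV muscles, against 16.9, 17.4, 18.9 and 21.2 in HOMO saline muscles (0.16 ± 0.11, adjusted p = 0.279). Neither passed the test. Ddit3 encodes CHOP, the factor linked to cell death under lasting ER stress. It had 11.6, 9.52, 9.16 and 7.42 in HOMO AAV muscles, against 7.88, 9.98, 12.8 and 9.22 in HOMO saline muscles, so that the groups overlapped (-0.07 ± 0.16, adjusted p = 0.771).

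**Figure D2:**
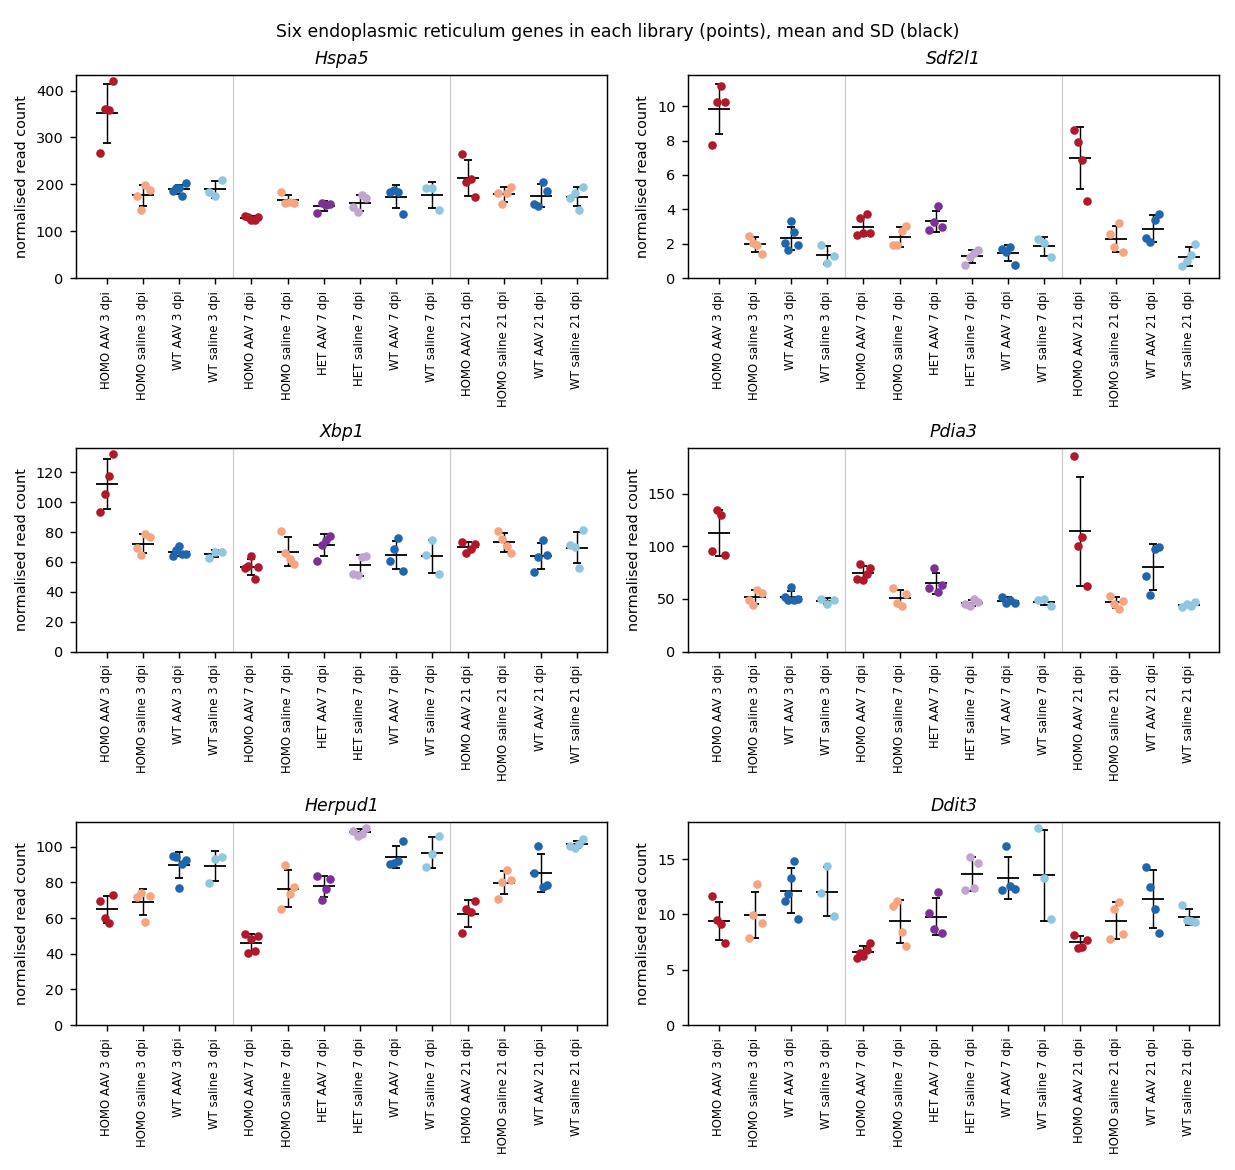
Normalised read count (y axis, from 0) of 6 member genes in each library (points), with group means and SD in black, for the 14 groups along the x axis, ordered by day. Every HOMO AAV muscle at 3 dpi lies above all muscles of the other groups for Hspa5 and Xbp1. For Sdf2l1 and Pdia3 these muscles overlap HOMO AAV muscles at 21 dpi. For Pdia3 they also overlap WT AAV replicates 3 and 4 at 21 dpi (97.7 and 98.9). Herpud1 is lowest in HOMO AAV muscles at 7 dpi, and the Ddit3 values of HOMO AAV and HOMO saline muscles at 3 dpi overlap.

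Set beside the promoter stretches, 7 of the 8 members with ERSE were higher in HOMO AAV than in HOMO saline muscles at 3 dpi, with a median change of 0.83. Of the 19 members whose window lacked it, 13 were higher, with a median of 0.62. Dnajc3 was the member with ERSE that did not pass. The largest rise of all, that of Sdf2l1, belonged to a gene without ERSE in its window, and Herpud1, with ERSE-II, did not pass the test at this day. At 7 dpi 2 of the 8 members with ERSE were higher and 1 lower in HOMO AAV than in HOMO saline muscles, with a median of 0.12, against 8 higher and 3 lower of the 19 without, with a median of 0.23. At 21 dpi 6 of the 8 were higher (median 0.41), against 10 higher and 2 lower of the 19 without (median 0.23). In HET muscle at 7 dpi 4 of the 8 were higher (median 0.24), against 9 higher and 2 lower of the 19 (median 0.21). In WT muscle none of either set was called at 3 or 7 dpi, and at 21 dpi 4 of the 8 were higher, against 6 higher and 4 lower of the 19. Over all genes 17.4% were higher in HOMO AAV muscles at 3 dpi, 20.6% at 7 dpi and 29.7% at 21 dpi, 19.6% in HET AAV muscles and 19.7% in WT AAV muscles at 21 dpi. The differences between members with and without ERSE were not tested. A match of letters is a description of sequence, and binding was not measured.

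Other genes of the same pathway, taken from lists, were mostly higher or not called at 3 dpi. In HOMO AAV against HOMO saline muscles 17.4% of all genes were higher and 17.2% lower. Of 30 other folding enzymes tested, 15 were higher and 0 lower in HOMO AAV than in HOMO saline muscles, among them Serpinh1, the collagen chaperone Hsp47, with 128.5 ± 32.5 in HOMO AAV and 62.5 ± 10.5 in HOMO saline muscles (SD, n = 4 each). Of 26 other translocation and glycosylation genes 14 were higher and 0 lower. The signal peptidase subunit Spcs3 rose by 0.92 ± 0.10 (adjusted p = 4.82e-09) and the oligosaccharyltransferase subunit Ddost by 0.75 ± 0.09 (adjusted p = 5.83e-08). Of 17 other degradation genes 9 were higher and 2 lower, and of 19 other COPII export genes 11 were higher and 1 lower, with Kdelr2, which returns chaperones to the ER, up by 0.78 ± 0.11 (adjusted p = 4.48e-07). Of 10 other sensors and bZIP factors 2 were higher, near the share of all genes, and 0 lower. These were Atf6b, a relative of Atf6 (0.61 ± 0.13, adjusted p = 0.000388), and Traf2, an adaptor of IRE1 (0.63 ± 0.14, adjusted p = 0.000339). Eif2ak3, which encodes PERK, changed by 0.34 ± 0.15 and did not pass (adjusted p = 0.0715).

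Of 18 genes of the PERK and ATF4 arm, 10 were higher and 0 lower, where 17.4% of all genes were higher and 17.2% lower. Atf4 had 193 ± 26.1 in HOMO AAV and 121 ± 9.56 in HOMO saline muscles (SD, n = 4 each), and its target Psat1, of serine synthesis, 14.1 ± 2.77 in HOMO AAV and 1.17 ± 0.625 in HOMO saline muscles (2.82 ± 0.32 on the log2 scale, adjusted p = 9.67e-09). ATF4 is also raised by stresses outside the ER. In the cytosol 10 of 16 heat shock genes were higher and 0 lower, with Hspb8, a small heat shock protein, up by 1.196 ± 0.16 (adjusted p = 1.52e-07). Of the 14 genes of the sarcoplasmic reticulum calcium store, 0 were higher and 13 lower. Stim1, the store's calcium sensor, fell by 0.53 on the log2 scale (SE 0.08, adjusted p = 4.74e-06).

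Markers of other cells moved at the same time, where 17.4% of all genes were higher and 17.2% lower. Of 12 macrophage markers 11 were higher in HOMO AAV than in HOMO saline muscles at 3 dpi, and their summed level was 350 to 918 in HOMO AAV and 74.8 to 169 in HOMO saline muscles. Of 10 fibroblast and matrix markers 6 were higher and 1 lower, with sums of 1436 to 3182 in HOMO AAV and 980 to 1544 in HOMO saline muscles. B and plasma cell markers summed to 6.89 to 13.1 in HOMO AAV and 5.09 to 15.03 in HOMO saline muscles, with 0 of 3 tested called, and Igkc, Jchain and Mzb1 were at 0 reads in some of the HOMO AAV libraries. For T and natural killer cells 0 of 6 markers were called. Adult fibre markers fell in 7 of 8 cases, endothelial markers in 4 of 7, and of 6 satellite cell and myoblast markers 2 were higher and 1 lower. HOMO AAV replicate 4 had the lowest macrophage and fibroblast sums of its group, and 18 of the 35 members were above the group mean there. It had the lowest value of its group for all 5 isomerases, Calr, Creld2, Edem1, Sec61a1 and Ddit3, and the highest for Hspa5, Hyou1, Xbp1, Dnajb9, Dnajc3, Manf, Herpud1, Derl1, Sec61b, Ssr3 and Spcs2. The part of these cells in the ER changes was not tested.

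**Figure D3:**
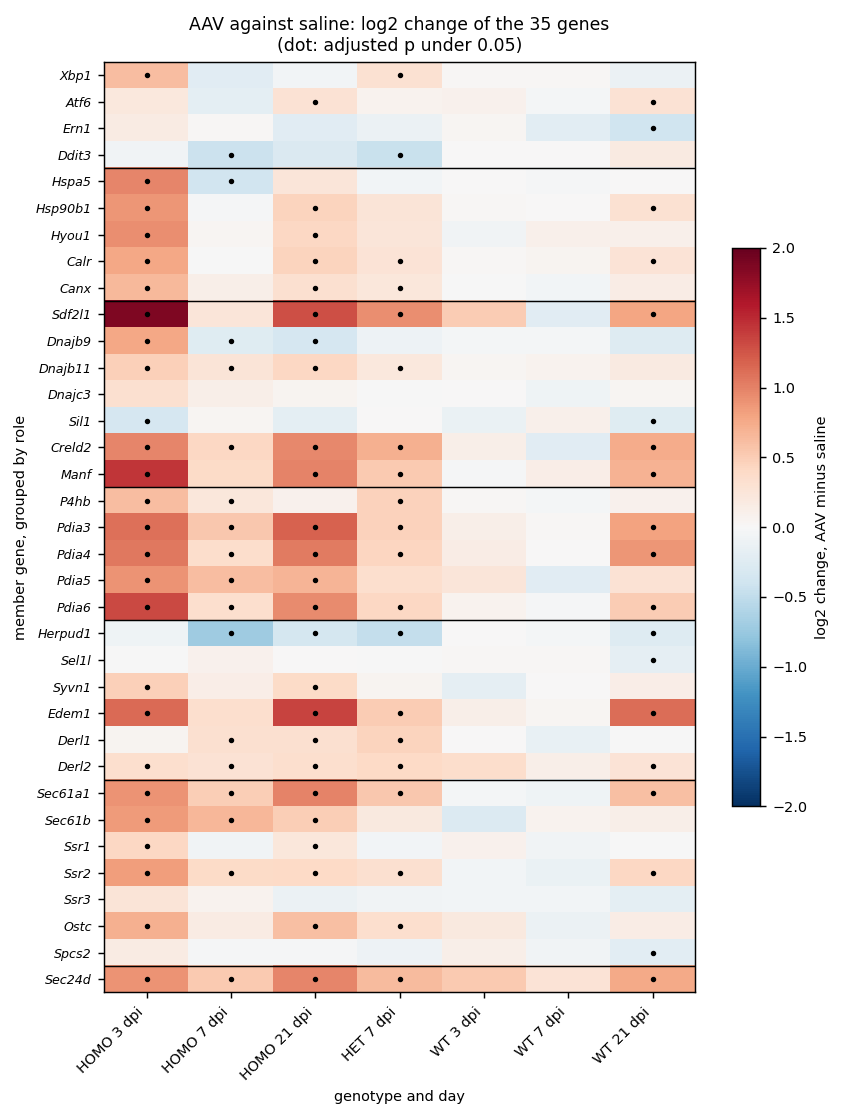
Log2 change of each of the 35 genes (rows, grouped by role), AAV minus saline, in 7 pairings of genotype and day (columns), with a dot where the adjusted p is under 0.05. HOMO muscle at 3 dpi carries 26 dots, of which 25 are rises, and WT muscle at 3 and 7 dpi carries 0.

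In WT muscle given the same virus no ER gene passed the test at 3 dpi. By limma, 0 of the 35 members were called in WT AAV against WT saline muscles, as were 0 of all 13017 genes (0% called), and 3 members and 430 genes had an unadjusted p under 0.05. edgeR and DESeq2 on the recovered reads called 0 members as well. Hspa5 had 186, 192, 191, 175 and 202 in WT AAV muscles, against 184, 175 and 209.6 in WT saline muscles. Sdf2l1 had 2.05, 1.64, 3.3, 2.67 and 1.93 in WT AAV muscles, against 1.9, 0.866 and 1.26 in WT saline muscles, a change of 0.50 ± 0.20 (adjusted p = 1). Hsp90b1, Hyou1, Calr, Xbp1, Atf6, Ern1 and Ddit3 changed by between -0.07 and 0.09, with adjusted p = 1 each. Macrophage markers summed to 126 to 293 in WT AAV and 92.4 to 95.2 in WT saline muscles.

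The response of HOMO muscle exceeded that of WT muscle for most members when the difference itself was tested. At 3 dpi 21 of the 35 members had a larger response in HOMO than in WT muscle and 0 a smaller one, where 5.39% of all genes had a larger and 4.36% a smaller one, and the median difference was 0.65. Pdia6 differed by 1.25 ± 0.18 (adjusted p = 2.4e-05), Hyou1 by 0.99 ± 0.15 (adjusted p = 2.77e-05), P4hb by 0.59 ± 0.09 (adjusted p = 3.2e-05), Calr by 0.76 ± 0.11 (adjusted p = 3.24e-05) and Ssr2 by 0.89 ± 0.15 (adjusted p = 0.000195). All 5 chaperones and 4 of the 5 isomerases passed. Hspa5 differed by 0.98 ± 0.17 (adjusted p = 0.000263), Sdf2l1 by 1.37 ± 0.28 (adjusted p = 0.00158) and Xbp1 by 0.59 ± 0.16 (adjusted p = 0.0169). For Sec24d the difference of 0.38 ± 0.27 did not pass (adjusted p = 0.397). The median transgene level was lower in WT AAV muscles at this day, as given above. The ranges overlapped, with 3.31 to 48.4 in WT AAV and 31.2 to 80.6 in HOMO AAV muscles. Genotype and protease level were not set apart by this test, and the part of each was not tested. Of the other pathway lists, 9 of 30 other folding enzymes, 6 of 26 translocation and glycosylation genes, 4 of 17 degradation genes, 9 of 19 export genes, 1 of 10 sensors and 5 of 18 PERK and ATF4 genes had a larger response in HOMO muscle, and 0 a smaller one.

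**Figure D4:**
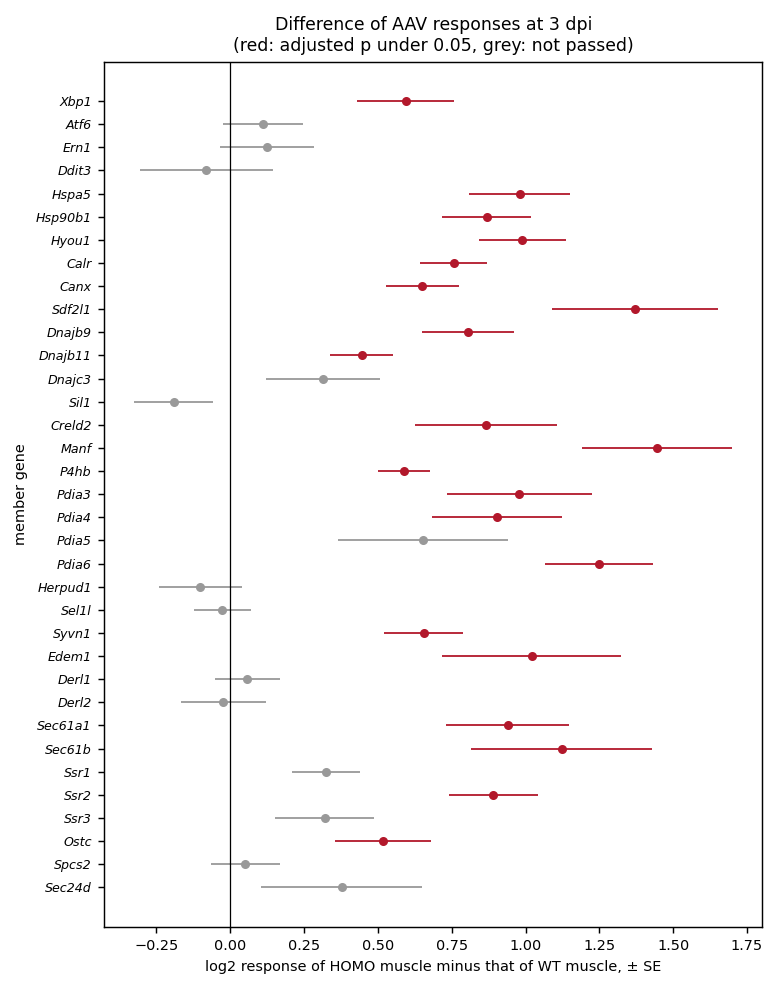
Difference between the AAV response of HOMO muscle and that of WT muscle at 3 dpi for each of the 35 genes (x axis, log2, with SE bars). Red points passed the test, all 21 of them to the right of 0, and grey points did not.

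At 7 dpi all 5 isomerases and 3 of 7 entry genes were higher in HOMO AAV than in HOMO saline muscles, and Hspa5 was lower. Of the 35 members 13 were higher, 4 lower and 18 not passed in HOMO AAV against HOMO saline muscles, where 20.6% of all genes were higher and 22.5% lower. The median change was 0.14. Of the 5 chaperones 0 were higher and 1, Hspa5, was lower. Hspa5 had 131, 130.1, 123, 123 and 129 in HOMO AAV muscles, against 183, 161, 162 and 160.2 in HOMO saline muscles. The AAV muscles lay close together and all below the saline muscles (-0.38 ± 0.11, adjusted p = 0.00514), although after quantile normalization the change was -0.27 (adjusted p = 0.0696). Values are reads over an effective library size. That size was 1.16 to 1.28 times the recovered reads in HOMO AAV and 0.893 to 0.939 times in HOMO saline muscles. Over total reads these groups would lie closer, which was not tested. Calr stood at 145 ± 10.8 in HOMO AAV (n = 5) and 145 ± 5.55 in HOMO saline muscles (n = 4, SD), and Hsp90b1 and Hyou1 overlapped likewise (adjusted p = 0.866 and 0.807).

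Herpud1, with the ERSE-II element shown above (ENSMUSG00000031770, chr8:94386438-94395377, plus strand, GRCm38), fell most at 7 dpi. It had 50.9, 40.3, 48.2, 41.4 and 49.9 in HOMO AAV muscles, against 65.3, 90.04, 73.5 and 77.6 in HOMO saline muscles. The groups did not overlap and the change was -0.72 ± 0.09 (adjusted p = 4.7e-08). Ddit3 had 6.07, 6.51, 6.2, 6.83 and 7.42 in HOMO AAV muscles, against 10.8, 11.2, 8.42 and 7.14 in HOMO saline muscles, lower with a small overlap (-0.43 ± 0.15, adjusted p = 0.0162). That call was lost without HOMO saline replicate 1 (-0.37, adjusted p = 0.0669) or replicate 2 (-0.35, adjusted p = 0.0809). Dnajb9 changed by -0.25 ± 0.10 (adjusted p = 0.0449), a call that was lost in 8 of 9 fits with 1 library left out, all but that without HOMO AAV replicate 3, with adjusted p = 0.144 at most.

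The largest rises at 7 dpi were those of isomerases, channel subunits and Sec24d. Pdia3 had 68.8, 83.5, 67.6, 73.4 and 79.0 in HOMO AAV muscles, against 60.4, 46.0, 43.0 and 54.6 in HOMO saline muscles, without overlap (0.55 ± 0.16, adjusted p = 0.0057). Sec61b had 7.94, 15.7, 11.8, 12.9 and 13.5 in HOMO AAV muscles, against 7.51, 5.44, 10.2 and 6.68 in HOMO saline muscles (0.66 ± 0.20, adjusted p = 0.00702). Here the first AAV muscle lay within the saline range. Pdia5 rose by 0.62 ± 0.19 (adjusted p = 0.00756), a call lost after quantile normalization (0.42, adjusted p = 0.0536). Sec24d rose by 0.52 ± 0.18 (adjusted p = 0.0171) and Sec61a1 by 0.49 ± 0.14 (adjusted p = 0.00373). Sdf2l1 had 2.49, 3.47, 2.63, 3.73 and 2.62 in HOMO AAV muscles, against 1.89, 1.92, 2.74 and 3.02 in HOMO saline muscles, and did not pass (0.24 ± 0.19, adjusted p = 0.31). Of the sensors, Xbp1 (-0.23 ± 0.11, adjusted p = 0.0791), Atf6 (-0.20 ± 0.09, adjusted p = 0.0676) and Ern1 (0.03 ± 0.10, adjusted p = 0.861) did not pass either.

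Counts of the other lists in HOMO AAV against HOMO saline muscles at 7 dpi were 11 higher and 2 lower of 30 folding enzymes, 11 higher and 7 lower of 26 translocation and glycosylation genes, 6 higher and 3 lower of 17 degradation genes, and 4 higher and 7 lower of 19 export genes. Among all genes 20.6% were higher and 22.5% lower. Among 18 PERK and ATF4 genes 4 were higher and 5 lower. Atf4 itself stood at 82.2 ± 7.08 in HOMO AAV (n = 5) and 129 ± 11.5 in HOMO saline muscles (n = 4, SD), a change of -0.64 ± 0.11 (adjusted p = 4.66e-06). Macrophage markers were higher in 11 of 12 cases, with sums of 293 to 474 in HOMO AAV and 73.2 to 113 in HOMO saline muscles, and fibroblast markers in 8 of 10, with sums of 2800 to 5031 in HOMO AAV and 1068 to 1247 in HOMO saline muscles. Their part in the ER values was not tested.

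HET muscle, whose titin carries the site from a single allele, was sampled at 7 dpi. Of the members 18 were higher, 2 lower and 15 not passed in HET AAV against HET saline muscles, where 19.6% of all genes were higher and 20.8% lower, and the median change was 0.25. Without HET AAV replicate 2 the count was 12 higher and 1 lower. Sdf2l1 had 2.79, 3.27, 4.17 and 2.99 in HET AAV muscles, against 0.735, 1.23, 1.45 and 1.62 in HET saline muscles, with no overlap (0.94 ± 0.20, adjusted p = 0.000146). Creld2 rose by 0.71 ± 0.17 (adjusted p = 0.00066), Sec24d by 0.63 ± 0.19 (adjusted p = 0.007), Sec61a1 by 0.54 ± 0.15 (adjusted p = 0.00253) and Manf by 0.52 ± 0.18 (adjusted p = 0.0155), or 0.44 (adjusted p = 0.0653) without HET saline replicate 2. Calr had 152, 172, 182 and 169.9 in HET AAV muscles, against 136, 145, 144 and 135 in HET saline muscles (0.27 ± 0.08, adjusted p = 0.00645). Hspa5 had 139, 161, 156 and 159 in HET AAV muscles, against 152, 141, 176 and 171 in HET saline muscles, and the groups overlapped (-0.05 ± 0.12, adjusted p = 0.751).

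Hsp90b1 and Hyou1 separated the HET groups without passing the test. Hsp90b1 had 125, 141, 131 and 140.4 in HET AAV muscles, against 108, 104, 120.4 and 119 in HET saline muscles (0.25 ± 0.11, adjusted p = 0.0527). Hyou1 changed by 0.24 ± 0.10 (adjusted p = 0.0562), and both were called in 6 of 11 other settings of the analysis. With the replicate block and only these groups in the fit, the adjusted p was 0.0111 for Hsp90b1 and 0.0261 for Hyou1. Xbp1 rose by 0.30 ± 0.11 (adjusted p = 0.0332), a call lost without HET saline replicate 1 or 2 or HET AAV replicate 2, 3 or 4, with adjusted p = 0.114 at most. Herpud1 had 83.4, 70.1, 76.3 and 81.7 in HET AAV muscles, against 109, 106, 107 and 111 in HET saline muscles, all 4 of them lower (-0.47 ± 0.10, adjusted p = 0.00012). Ddit3 had 10.1, 8.69, 12.004 and 8.31 in HET AAV muscles, against 12.2, 15.2, 12.4 and 14.6 in HET saline muscles (-0.45 ± 0.16, adjusted p = 0.02), and this call was lost without HET saline replicate 2 or 4 or HET AAV replicate 2 or 4, with adjusted p = 0.0764 at most. Atf6 and Ern1 changed by 0.07 ± 0.09 and -0.12 ± 0.11 and did not pass. Macrophage markers summed to 223 to 403 in HET AAV and 64.6 to 112 in HET saline muscles, and fibroblast markers to 2780 to 4805 in HET AAV and 781 to 1107 in HET saline muscles. Their part was not tested.

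In WT muscle at 7 dpi limma called 0 of the 35 members and 0 of all genes (0% called) between WT AAV and WT saline muscles. The counts at an unadjusted p under 0.05 were 0 members and 210 genes, and edgeR and DESeq2 called 0 members. Hspa5 had 184, 189, 184 and 137 in WT AAV muscles, against 193, 192 and 144 in WT saline muscles, with 1 low muscle in each group. Sdf2l1 had 1.71, 1.5, 1.78 and 0.786 in WT AAV muscles, against 2.27, 2.04 and 1.24 in WT saline muscles. The groups overlapped for both genes. Hsp90b1, Hyou1, Calr, Xbp1, Atf6, Ern1 and Ddit3 changed by between -0.20 and 0.10, with adjusted p = 1 each. Herpud1 had 90.5, 90.8, 92.1 and 103 in WT AAV muscles, against 88.4, 95.8 and 106 in WT saline muscles.

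Tested as differences at 7 dpi, 5 members had a larger and 1 a smaller response in HOMO than in WT muscle, where 9.29% of all genes had a larger and 10.9% a smaller one. Without HOMO saline replicate 4 these were 2 larger and 1 smaller. Herpud1 differed by -0.68 ± 0.14 (adjusted p = 0.000647) and Derl1, a channel protein of degradation, by 0.46 ± 0.11 (adjusted p = 0.00281). Derl1 had 91.3, 93.1, 80.3, 96.9 and 85.3 in HOMO AAV muscles, against 67.7, 73.4, 72.4 and 72.9 in HOMO saline muscles. Ssr2 differed by 0.52 ± 0.15 (adjusted p = 0.0111), P4hb by 0.27 ± 0.09 (adjusted p = 0.0245) and Pdia5 by 0.84 ± 0.29 (adjusted p = 0.0331), and the last was lost in 8 of 16 fits with 1 library left out. P4hb was lost without WT saline replicate 2 or 3 or HOMO saline replicate 4, with adjusted p = 0.058 at most.

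For HET against WT responses 6 members had a larger and 1 a smaller response in HET muscle, where 10.3% of all genes had a larger and 9.88% a smaller one. P4hb differed by 0.50 ± 0.09 (adjusted p = 0.000114), Derl1 by 0.58 ± 0.11 (adjusted p = 0.000208), Sdf2l1 by 1.16 ± 0.29 (adjusted p = 0.00318), Creld2 by 0.93 ± 0.25 (adjusted p = 0.00549) and Herpud1 by -0.43 ± 0.14 (adjusted p = 0.0248). Without WT saline replicate 1 the count was 4, and Herpud1 no longer passed without that muscle, WT AAV replicate 4 or HET AAV replicate 2 (adjusted p = 0.091 at most). Between HOMO and HET responses 1 member differed, Xbp1, where 0.699% of all genes had a larger and 2.54% a smaller response in HOMO muscle. Its response was smaller in HOMO muscle by -0.53 ± 0.16 (adjusted p = 0.0485), and the call was lost in 11 of 17 fits with 1 library left out (adjusted p = 0.175 at most) and in 4 of 10 other settings. Transgene medians differed between the 3 genotypes at this day, as given above.

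**Figure D5:**
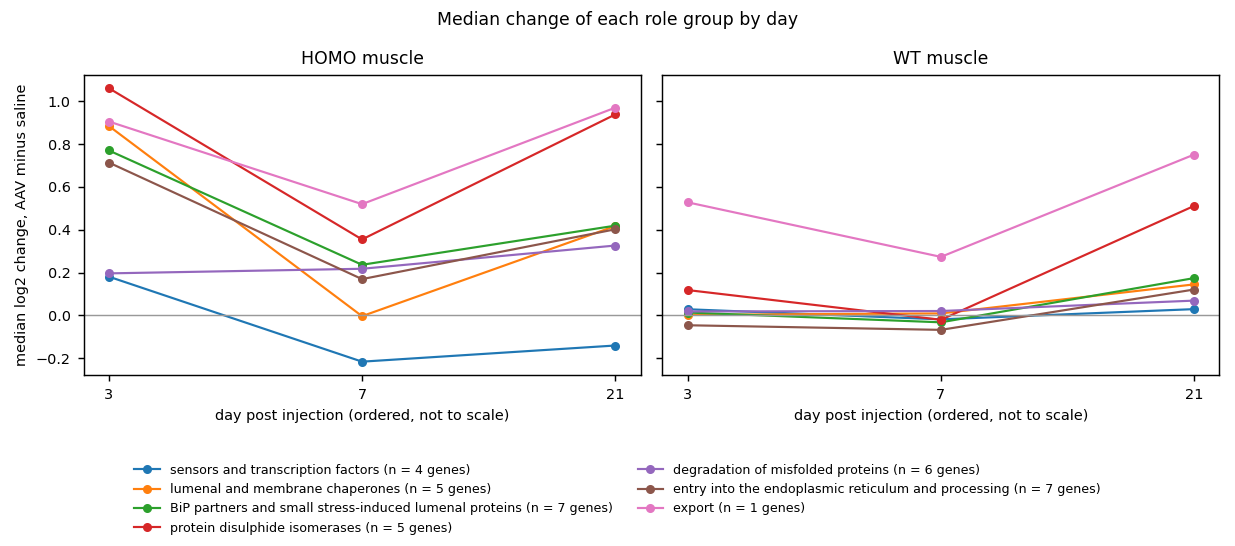
Median log2 change, AAV minus saline, of the members of each role group (lines) at 3, 7 and 21 dpi in HOMO muscle and in WT muscle, with days ordered and not to scale. In HOMO muscle the chaperone line stands at 0.88, 0.00 and 0.42, and the isomerase line at 1.06, 0.36 and 0.94. In WT muscle most lines leave 0 mainly at 21 dpi. The WT export line, which is Sec24d alone, stands at 0.53, 0.27 and 0.75.

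At 21 dpi 4 of 5 isomerases, 4 of 5 chaperones, 5 of 7 entry genes and 4 of 6 degradation genes were higher in HOMO AAV than in HOMO saline muscles, with Herpud1 lower among the last. Of the 7 BiP partners and small lumenal proteins 4 were higher and Dnajb9 was lower, and P4hb was the isomerase that did not pass. Of the members 23 were higher, 2 lower and 10 not passed in HOMO AAV against HOMO saline muscles, where 29.7% of all genes were higher and 29.6% lower. The median change was 0.39. Fewer members were called with the replicate block and only these groups in the fit, as given in a later section. Edem1 had 39.1, 19.1, 20.4 and 10.9 in HOMO AAV muscles, against 8.11, 9.25, 5.67 and 6.73 in HOMO saline muscles (1.35 ± 0.21, adjusted p = 4.41e-07). Sdf2l1 had 8.63, 7.93, 6.84 and 4.48 in HOMO AAV muscles, against 2.57, 1.81, 3.18 and 1.5 in HOMO saline muscles (1.28 ± 0.20, adjusted p = 2.71e-07). Pdia3 had 186, 100.006, 109 and 61.8 in HOMO AAV muscles, against 53.1, 45.03, 40.4 and 48.0 in HOMO saline muscles (1.17 ± 0.17, adjusted p = 1.08e-07). In all of these genes replicate 1 was the highest and replicate 4 the lowest AAV muscle, and the groups did not overlap. Pdia4 rose by 1.03 ± 0.15 (adjusted p = 1.53e-07) and Manf by 0.99 ± 0.18 (adjusted p = 5.83e-06).

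The 5 chaperones had a median change of 0.42 at 21 dpi and 0.88 at 3 dpi, and the difference between these days was not tested. Calr had 235, 217, 214 and 165 in HOMO AAV muscles, against 154, 139, 150.2 and 163 in HOMO saline muscles (0.44 ± 0.08, adjusted p = 5.99e-06). Hsp90b1 had 247, 184, 183 and 139 in HOMO AAV muscles, against 129, 127, 136 and 148 in HOMO saline muscles, so the fourth AAV muscle lay within the saline range (0.45 ± 0.11, adjusted p = 0.000298). With the replicate block and only these groups in the fit its adjusted p was 0.0593. Hyou1 rose by 0.42 ± 0.10 (adjusted p = 0.000515). Hspa5 had 265, 205, 211 and 173 in HOMO AAV muscles, against 181, 157, 182 and 193 in HOMO saline muscles, and did not pass (0.25 ± 0.12, adjusted p = 0.0693). It was called in 3 of 11 other settings, among them quantile normalization, where the change was 0.58 while the median of all genes moved by -0.12. Herpud1 had 51.6, 65.3, 63.7 and 69.6 in HOMO AAV muscles, against 70.9, 80.4, 86.9 and 81.3 in HOMO saline muscles, again lower without overlap (-0.35 ± 0.10, adjusted p = 0.00174). Dnajb9, high at 3 dpi, had 37.1, 38.6, 39.8 and 38.4 in HOMO AAV muscles, against 48.1, 48.9, 50.5 and 48.3 in HOMO saline muscles (-0.34 ± 0.11, adjusted p = 0.0065). The falls of Herpud1 and Dnajb9 hold for values over the effective library size. That size was 1.11 to 1.49 times the recovered reads in HOMO AAV and 0.867 to 0.92 times in HOMO saline muscles. Changes over total reads were not tested.

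Of the sensors at 21 dpi, Atf6 rose in HOMO AAV against HOMO saline muscles by 0.29 ± 0.09 (adjusted p = 0.0072), and without HOMO AAV replicate 1 by 0.21 (adjusted p = 0.0641), which no longer passed, nor did it with the replicate block and only these groups in the fit (adjusted p = 0.0851). Xbp1 changed by -0.06 ± 0.11 (adjusted p = 0.666), Ern1 by -0.22 ± 0.11 (adjusted p = 0.083) and Ddit3 by -0.28 ± 0.16 (adjusted p = 0.113). Of 10 other sensors and bZIP factors 5 were higher and 1 lower, with Atf6b up by 1.01 ± 0.13 (adjusted p = 1.45e-08). Of 18 genes of the PERK and ATF4 arm 9 were higher and 5 lower, while Atf4 itself stood lower by -0.62 ± 0.11 (adjusted p = 6.37e-06). The remaining lists gave 14 higher and 2 lower of 30 folding enzymes, 10 higher and 7 lower of 26 translocation and glycosylation genes, 6 higher and 4 lower of 17 degradation genes, and 6 higher and 7 lower of 19 export genes. Among all genes 29.7% were higher and 29.6% lower.

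At the same day in WT muscle 14 members were higher, 5 lower and 16 not passed in WT AAV against WT saline muscles, where 19.7% of all genes were higher and 21.3% lower, with a median change of 0.15. After quantile normalization the split was 16 higher and 2 lower, and by edgeR and by DESeq2 15 higher and 1 lower each. Edem1 had 14.4, 9.11, 24.0 and 22.1 in WT AAV muscles, against 5.32, 8.76, 6.96 and 7.19 in WT saline muscles (1.12 ± 0.21, adjusted p = 3.73e-05). Pdia4 had 21.7, 16.3, 21.8 and 25.5 in WT AAV muscles, against 10.5, 10.8, 9.92 and 13.1 in WT saline muscles (0.88 ± 0.15, adjusted p = 1.22e-05). Pdia3 had 71.8, 53.9, 97.7 and 98.9 in WT AAV muscles, against 41.9, 45.03, 42.9 and 47.1 in WT saline muscles (0.81 ± 0.17, adjusted p = 0.000175). Replicate 2 was the lowest AAV muscle in each, and still above every saline muscle. Sdf2l1 rose by 0.80 ± 0.20 (adjusted p = 0.00102) and Sec24d by 0.75 ± 0.19 (adjusted p = 0.00137).

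Hspa5 had 158, 153, 205 and 185 in WT AAV muscles at 21 dpi, against 171, 182, 146 and 194 in WT saline muscles (0.01 ± 0.12, adjusted p = 0.939). Hsp90b1 rose by 0.31 ± 0.11 (adjusted p = 0.016), a call lost without WT AAV replicate 3 (0.25, adjusted p = 0.0836) or 4 (0.29, adjusted p = 0.0528). Calr rose by 0.27 ± 0.08 (adjusted p = 0.00609), or 0.20 (adjusted p = 0.064) without WT AAV replicate 4. Atf6 had 46.1, 41.3, 45.4 and 47.7 in WT AAV muscles, against 37.6, 37.5, 34.2 and 38.2 in WT saline muscles (0.28 ± 0.09, adjusted p = 0.0142), and did not pass without WT AAV replicate 4 or WT saline replicate 3 (adjusted p = 0.0517 each). Ern1 had 11.7, 15.1, 16.9 and 13.4 in WT AAV muscles, against 20.0, 18.1, 18.9 and 18.5 in WT saline muscles, lower without overlap (-0.39 ± 0.11, adjusted p = 0.00384). Herpud1 (-0.25 ± 0.10, adjusted p = 0.0346), Sil1 (-0.24 ± 0.09, adjusted p = 0.033), Spcs2, a subunit of signal peptidase (-0.21 ± 0.08, adjusted p = 0.0376), and Sel1l (-0.17 ± 0.07, adjusted p = 0.0351) were the other members called lower. Each of these 4 calls was lost in 4 or 5 of 11 other settings and in 4 to 6 of 8 fits with 1 library left out, with adjusted p = 0.205 at most. Hyou1 (0.10 ± 0.10, adjusted p = 0.481), Xbp1 (-0.12 ± 0.11, adjusted p = 0.416) and Ddit3 (0.18 ± 0.16, adjusted p = 0.371) did not pass.

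Immune markers were high in both genotypes at 21 dpi. Macrophage markers summed to 279 to 2471 in HOMO AAV and 43.0 to 100 in HOMO saline muscles, and to 301 to 945 in WT AAV and 65.8 to 85.7 in WT saline muscles. All 3 B and plasma cell markers tested and all 6 T and natural killer cell markers were higher in AAV muscles of both genotypes, with B and plasma cell sums of 95.8 to 576 in HOMO AAV and 22.1 to 31.9 in HOMO saline muscles, and of 227 to 852 in WT AAV and 36.4 to 51.0 in WT saline muscles. HOMO AAV replicate 1, which had the highest Edem1, Sdf2l1 and Pdia3, had the highest macrophage sum, and 27 of the 35 members were above the mean of its group there. HOMO AAV replicate 4, with the lowest macrophage sum, had 6 members above that mean. The part of these cells was not tested.

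The difference between the HOMO and the WT response at 21 dpi was called for 0 of the 35 members by limma, where 1.84% of all genes had a larger and 3.79% a smaller response in HOMO muscle. DESeq2 called 1 member and edgeR 0, and 7 members had an unadjusted p under 0.05. The differences ranged from -0.47 to 0.49 with a median of 0.18, and 31 of 35 were above 0. The count was 1 without WT AAV replicate 3, 2 without WT AAV replicate 4, 1 without HOMO AAV replicate 1 and 6 without HOMO AAV replicate 4.

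Changes of the response between days were tested as well. In HOMO muscle 16 members had a smaller response at 7 than at 3 dpi and 0 a larger one, where 3.16% of all genes had a smaller and 2.8% a larger one. Hspa5 differed by -1.37 ± 0.16 (adjusted p = 4.38e-07), Calr by -0.78 ± 0.11 (adjusted p = 9.4e-06), Dnajb9 by -1.02 ± 0.15 (adjusted p = 1.71e-05), Hyou1 by -0.89 ± 0.14 (adjusted p = 5.65e-05) and Hsp90b1 by -0.91 ± 0.15 (adjusted p = 6.54e-05). The macrophage sum in HOMO AAV muscles was 350 to 918 at 3 dpi and 293 to 474 at 7 dpi, and the fibroblast sum 1436 to 3182 at 3 dpi and 2800 to 5031 at 7 dpi.

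Between 7 and 21 dpi 8 members gained and 0 lost response in HOMO muscle, where 7.54% of all genes gained and 6.27% lost. Calr differed by 0.45 ± 0.11 (adjusted p = 0.00479), Sdf2l1 by 1.05 ± 0.27 (adjusted p = 0.00693), Hspa5 by 0.63 ± 0.16 (adjusted p = 0.00739), Atf6 by 0.49 ± 0.13 (adjusted p = 0.00854) and Edem1 by 1.02 ± 0.29 (adjusted p = 0.0142). The count was 5 without HOMO AAV replicate 1 at 21 dpi and 16 without replicate 4, and without replicate 1 Edem1 no longer passed (0.71, adjusted p = 0.0817). In WT muscle 8 members gained and 0 lost response between the same days, where 10.5% of all genes gained and 8.63% lost, and 5 did without WT AAV replicate 4 at 21 dpi. Creld2 differed by 0.96 ± 0.25 (adjusted p = 0.00533), Pdia4 by 0.87 ± 0.23 (adjusted p = 0.00577), Ssr2 by 0.56 ± 0.15 (adjusted p = 0.00853), Sdf2l1 by 1.02 ± 0.29 (adjusted p = 0.0103) and Edem1 by 1.07 ± 0.31 (adjusted p = 0.0121).

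Without virus, HOMO muscle differed from WT muscle in Herpud1 alone among the members, and that difference was fragile. Herpud1 had 71.7, 74.0, 57.9 and 72.5 in HOMO saline muscles at 3 dpi, against 79.5, 93.2 and 94.5 in WT saline muscles, without overlap (-0.37 ± 0.10, adjusted p = 0.0482). It had 70.9, 80.4, 86.9 and 81.3 in HOMO saline muscles at 21 dpi, against 101, 99.3, 101 and 104 in WT saline muscles (-0.34 ± 0.10, adjusted p = 0.0345). At 7 dpi the difference of -0.34 ± 0.10 did not pass (adjusted p = 0.0809). So 1 member was lower at 3 dpi, where 0.576% of all genes were lower and 1.71% higher, and 1 at 21 dpi, where 0.722% were lower and 2.6% higher. The call was lost in 6 of 7 fits with 1 library left out at 3 dpi, all but that without WT saline replicate 1, and in 7 of 8 at 21 dpi, all but that without HOMO saline replicate 3 (adjusted p = 0.288 and 0.174 at most). At 7 dpi limma called 0 members between HOMO saline and WT saline muscles (1.63% of all genes higher and 0.453% lower, 3 members at an unadjusted p under 0.05, and 0 by edgeR and 1 by DESeq2). Between HET saline and WT saline muscles it called 0 (0.131% of all genes higher and 0.0691% lower, 1 member at an unadjusted p under 0.05, and 0 by edgeR and by DESeq2). Herpud1 was not low in HET saline muscles, with 109, 106, 107 and 111, against 88.4, 95.8 and 106 in WT saline muscles at 7 dpi.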

How the data were processed

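Muscles were broken up with beads, RNA was extracted in TRI reagent and libraries were prepared with the NEBNext Ultra II Directional kit, per the labels' protocols. Bowtie, RSEM, limma, FastQC and the build GRCm38/mm10 are named in the submitters' processing notes. Versions and the strand setting of counting are not given in the sources used here, so a gene and an antisense partner may share reads, and RSEM divides reads that match several genes by estimation. The authors deposited a normalised read count (a signal on a linear scale): each value is the reads of a gene plus 0.5, over an effective library size, on a per-million scale. Whole reads were recovered for 100% of values within 0.02 reads, and ranged from 6.9 M to 27.18 M per library with a median of 21.69 M. The effective size was 0.859 to 1.49 times these reads. It was higher in every HOMO AAV than in every HOMO saline muscle of the same day, so rises and falls depend on this scaling. No fit used total reads alone as the scale.

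limma 3.58.1 (R 4.3.3) was fitted to log2(value + 1) with an intensity trend, 14 group means and all 56 samples. Genes averaging 1 CPM or more (13017) were tested, and 1853 were left out. Adjusted p-values are Benjamini-Hochberg values over all genes tested, called under 0.05, for 19 comparisons. Fold changes are on the log2(value + 1) scale, which understates changes of low genes. The test was checked on simulated data. Alternatives were pseudocounts of 0.25 and 4, no filter, a filter at 5 CPM, median-of-ratios rescaling, quantile normalization, fits of only the groups compared, a replicate block, edgeR 4.0.16 and DESeq2 1.42.0 on recovered reads, and each library left out. The block with only the groups compared was added after seeing the data.

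Members, lists and comparisons were chosen with earlier results of these data known. Any member could be named by role. Values were always given for Hspa5, Hsp90b1, Sdf2l1, Hyou1, Calr, Xbp1, Atf6, Ern1 and Ddit3, for the called members with the largest changes when AAV was compared with saline (up to 5 in each direction), and for up to 5 called members of smallest p elsewhere. Of each other list up to 3 genes of smallest p in HOMO muscle at 3 dpi could be named. The other lists were folding enzymes, translocation and glycosylation, degradation, COPII export, sensors and bZIP factors, the PERK and ATF4 arm, the calcium store, cytosolic heat shock, and markers of 7 cell types. Pairing by replicate number was checked by the correlation of same-numbered muscles' deviations from their group means. Every pair exceeded 0.1 in HET muscle at 7 dpi (0.13 to 0.18) and HOMO muscle at 21 dpi (0.16 to 0.23), so the numbers were taken as pairs there. These correlations were not compared with those of differently numbered muscles, so the pairing is an assumption. The main fit, which gave the reported p-values, held no pairs. Coordinates are from GENCODE M21 on GRCm38, and promoters from RefSeq (GRCm38.p6).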

Additional observations from a re-analysis of the deposited data

Results flagged for a closer look

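In 27 of 288 groups of values over 24 member genes (9.38%), 1 muscle stood far from the others of its group, where chance gives about 1 in 20 groups. WT AAV replicate 3 at 3 dpi did so for 5 genes. It had 42.05 for Dnajb9, against 48.94 to 49.4 in the other WT AAV muscles of the day, 77.03 for Herpud1 against 90.34 to 94.98, and 61.37 for Pdia3 against 48.76 to 52.02. It also had 12.53 for Sec24d against 7.523 to 8.843, and 70.83 for Sel1l against 74.83 to 76.39. WT AAV replicate 4 at 7 dpi had 136.5 for Hspa5 against 184.2 to 188.7 in the other WT AAV muscles, 28.21 for Pdia6 against 32.45 to 33.02, and 103.3 for Herpud1 against 90.47 to 92.1. In the same group Atf6 was 38.73 in replicate 1, Ddit3 16.15 in replicate 2 and Ern1 18.02 in replicate 3. HOMO AAV replicate 1 at 21 dpi had 23.88 for Sec24d against 11.42 to 13.54 in the other HOMO AAV muscles, and 17.4 for Sec61b against 14.1 to 14.41, and replicate 4 had 16.77 for Sil1 against 13.08 to 13.51.

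Single values stood apart in other groups. In HET AAV muscles at 7 dpi Pdia5 was 4.372 in replicate 2 and Hyou1 30.91 in replicate 3, and in WT AAV muscles at 3 dpi Pdia4 was 12.4 in replicate 2. In HOMO saline muscles Creld2 was 3.879 and Herpud1 57.94 in replicate 3 at 3 dpi, and Hspa5 was 183.5 and Dnajb9 52.12 in replicate 1 at 7 dpi. At 21 dpi HOMO saline replicate 3 had 32.81 for Hyou1 and 14.26 for Manf, and replicate 2 had 25.21 for Pdia6. In HET saline muscles at 7 dpi Atf6 was 34.2 in replicate 2 and Sil1 16.61 in replicate 3, and in WT saline muscles at 21 dpi Ddit3 was 10.86 in replicate 1.

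Responses differed by a test of the difference itself for 21 members between HOMO and WT muscle at 3 dpi and for 6 at 7 dpi. The shares of all genes with a larger and a smaller response in HOMO muscle were 5.39% and 4.36% at 3 dpi. At 7 dpi these shares were 9.29% and 10.9%. HET and WT responses differed for 7 members at 7 dpi (10.3% of all genes larger and 9.88% smaller in HET muscle). HOMO and HET responses differed there for 1 member (0.699% of all genes larger and 2.54% smaller in HOMO muscle). HOMO responses of 7 and 3 dpi differed for 16 members (2.8% of all genes larger and 3.16% smaller at 7 dpi). Responses of 21 and 7 dpi differed for 8 members in HOMO muscle (7.54% of all genes larger and 6.27% smaller at 21 dpi). In WT muscle these days differed for 8 members (10.5% of all genes larger and 8.63% smaller at 21 dpi). Outside the mouse genes, the viral transgene was detected in every AAV library, with 3.31 as its lowest normalised count.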

How the results depend on the processing

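Counts of members called lay within 1.5 times the reported count in most alternatives. The exceptions were as follows. After quantile normalization, and by DESeq2, 1 member differed between HOMO and WT responses at 21 dpi, and DESeq2 called 1 between HOMO saline and WT saline muscles at 7 dpi. With only the groups compared in the fit, HET and WT responses differed for 11 members, HOMO responses of 21 and 7 dpi for 3, and 0 members were called between HOMO saline and WT saline muscles at 3 dpi, as without a filter. Between 21 and 7 dpi in HOMO muscle edgeR and DESeq2 each called 14. The difference of HOMO and HET responses fell to 0 members without a filter, after median-of-ratios rescaling, after quantile normalization and with the replicate block. The replicate block gave 20 members called in HET muscle at 7 dpi and 25 in HOMO muscle at 21 dpi. With only those groups in the fit it gave 22 and 18. In these comparisons the numbers were taken as pairs, which the labels do not state. In the fit of all samples the block is a factor of replicate number shared by all 14 groups. Only the fits of the groups compared therefore treat the numbers as pairs. Beside the calls of Hsp90b1, Hyou1 and Atf6 given above, the block changed no call of a named gene in those comparisons. Elsewhere the numbers were not taken as pairs. In HOMO muscle at 7 dpi the block with only the groups compared gave 11. The causes of these shifts were not tested.

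With 1 library left out, counts for AAV against saline ranged over 26 to 30 (HOMO, 3 dpi), 13 to 18 (HOMO, 7 dpi), 23 to 26 (HOMO, 21 dpi), 13 to 20 (HET), 13 to 20 (WT, 21 dpi), and 0 to 0 in WT muscle at 3 and 7 dpi. For HOMO against WT responses they were 18 to 22, 3 to 6 and 0 to 6 at 3, 7 and 21 dpi, for HET against WT 4 to 8, and for HOMO against HET 0 to 1. Between days they were 13 to 17 (HOMO, 7 and 3 dpi), 5 to 16 (HOMO, 21 and 7 dpi) and 5 to 10 (WT). Between HOMO saline and WT saline muscles they were 0 to 1 at each day, and 0 to 0 for HET.

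Values near 0 changed sign. At HOMO 7 dpi Hsp90b1 was 0.091 after quantile normalization and -0.064 to 0.031 with 1 library left out. Calr there was 0.0016 after median-of-ratios rescaling, 0.11 after quantile normalization, 0.012 by edgeR and by DESeq2, and -0.034 to 0.019 with 1 left out, and Ern1 -0.026 to 0.10. Quantile normalization gave Xbp1 0.10 in HOMO muscle at 21 dpi, and Hspa5 0.031 in HET muscle. In WT muscle at 3 dpi the block gave Hspa5 -0.014 and Hsp90b1 -0.018, and edgeR Hspa5 -0.0012. At 7 dpi in WT muscle Hspa5 was 0.0080 after quantile normalization and 0.087 with the block and only the groups compared. Ddit3 there was -0.000386 with a pseudocount of 4, -0.000689 after quantile normalization and -0.027 by edgeR and by DESeq2. With 1 library left out Ddit3 ranged over -0.17 to 0.048 in HOMO muscle at 3 dpi. In WT muscle at 3 dpi the ranges were -0.053 to 0.078 (Hspa5), -0.020 to 0.048 (Hsp90b1), -0.0037 to 0.042 (Xbp1), -0.029 to 0.079 (Ern1) and -0.11 to 0.14 (Ddit3). At 7 dpi they were -0.16 to 0.087 (Hspa5), -0.072 to 0.071 (Hsp90b1), -0.074 to 0.22 (Hyou1), -0.11 to 0.15 (Xbp1), -0.15 to 0.088 (Atf6) and -0.20 to 0.21 (Ddit3), and Hspa5 in WT muscle at 21 dpi ranged over -0.066 to 0.077. Over all named results, leaving out 1 library gave 1134 on the same side of the threshold, 85 calls lost, 10 gained and 42 changes of sign. Members of low counts, such as Sdf2l1 and Pdia5, rest on the fewest reads.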

Other observations

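In the other comparisons the lists of related genes moved as follows. For reference, 19.6% of all genes were higher and 20.8% lower in HET muscle at 7 dpi. In WT muscle at 21 dpi 19.7% of all genes were higher and 21.3% lower, and several list counts lay near these shares. In HET muscle at 7 dpi 10 of 30 other folding enzymes were higher and 0 lower in HET AAV than in HET saline muscles, 9 of 26 translocation and glycosylation genes were higher and 6 lower, and 6 of 10 other sensors and bZIP factors were higher and 0 lower. Degradation genes gave 5 higher and 2 lower of 17, export genes 5 higher and 3 lower of 19, and PERK and ATF4 genes 5 higher and 4 lower of 18, with Atf4 at -0.03 ± 0.11 (log2 ± SE, limma adjusted p = 0.844). Serpinh1, the collagen chaperone, rose by 0.84 in HET AAV against HET saline muscles, by 0.76 in HOMO muscle at 7 dpi, by 0.99 in HOMO muscle at 21 dpi and by 0.75 in WT muscle at 21 dpi. In WT muscle at 21 dpi 8 of 30 other folding enzymes were higher and 3 lower in WT AAV than in WT saline muscles. Translocation and glycosylation genes gave 6 higher and 8 lower of 26, degradation genes 2 higher and 4 lower of 17, export genes 4 higher and 4 lower of 19, sensors 3 higher and 2 lower of 10, and PERK and ATF4 genes 6 higher and 4 lower of 18.

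Genes of the sarcoplasmic reticulum calcium store, the other specialised part of the ER in muscle, went lower where many folding genes were higher. Of its 14 genes 13 were lower and 0 higher in HOMO AAV than in HOMO saline muscles at 3 dpi, 9 lower and 0 higher at 7 dpi, and 11 lower and 2 higher at 21 dpi. In HET muscle 7 were lower and 3 higher, and in WT muscle at 21 dpi 8 lower and 2 higher. The share of all genes called lower in HOMO muscle was 17.2% at 3 dpi, 22.5% at 7 dpi and 29.6% at 21 dpi. It was 20.8% in HET muscle and 21.3% in WT muscle at 21 dpi. Adult fibre markers summed to 75210 to 99640 in HOMO AAV and 111100 to 132200 in HOMO saline muscles at 3 dpi, and to 54160 to 105000 in HOMO AAV and 138800 to 151700 in HOMO saline muscles at 21 dpi. Their part in the fall of the store genes was not tested. Cytosolic heat shock genes gave 5 higher and 2 lower of 16 in HOMO muscle at 7 dpi, 8 higher and 3 lower at 21 dpi, 9 higher and 1 lower in HET muscle, and 6 higher and 2 lower in WT muscle at 21 dpi. The matching shares of all genes called higher were 20.6%, 29.7%, 19.6% and 19.7%.

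Marker lists of other cells in HOMO muscle at 7 dpi gave 4 of 6 T and natural killer cell markers and 2 of 6 satellite cell markers higher, 6 of 7 endothelial and 7 of 8 fibre markers lower, and 0 of 3 B and plasma cell markers called. HET muscle gave 11 of 12 macrophage, 9 of 10 fibroblast and 3 of 6 satellite cell markers higher, 0 of 6 T and natural killer cell markers called, 5 of 7 endothelial markers lower, 1 of 3 B and plasma cell markers lower, and 4 of 8 fibre markers lower with 1 higher. At 21 dpi 8 of 10 fibroblast markers were higher in HOMO and 9 of 10 in WT muscle, and satellite cell markers rose in 4 of 6 cases in HOMO and 2 of 6 in WT muscle. Endothelial markers were lower in 6 of 7 cases in both, and fibre markers in 7 of 8 in HOMO and 5 of 8 in WT muscle.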
